A study of Mus musculus with 12 samples.

Results

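Immunoglobulin variable region genes were followed in mouse spleen in both sexes at 3 ages. The group was formed from the array annotation alone: a probe set, the unit of an Affymetrix array that reports a single value for a transcript, belonged if every gene symbol given to it began with Ighv, Igkv or Iglv, and if its scaled signal reached 100 on 2 or more of the 12 arrays. In all, 32 of 12422 non-control probe sets carried only such symbols, and all 32 were among the 8926 that passed this signal filter. They stand for 20 genes with a probe set of their own, 4 of the heavy chain locus (Ighv, 6 probe sets) and 16 of the kappa light chain locus (Igkv, 26 probe sets), in 14 gene families. No lambda variable gene (Iglv) was among them. Among the 26 kappa probe sets, 1 carried the symbols of both Igkv6-14 and Igkv4-53 and was counted but not named as a single gene. Another 10 probe sets, whose symbols mixed variable genes with other genes, did not belong and are described separately.

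An antibody is built from heavy and light chains, and the variable part of each chain is encoded by a gene that a developing B cell assembles by joining a V segment to J segments, with a D segment between them in the heavy chain. Each locus holds many V segments, which are grouped into families by similarity of sequence, and the first number in a name such as Igkv4-68 is the family. Each B cell uses few of them, so the level of a V gene in a tissue follows both the number of cells that use it and the amount of antibody message each cell makes. Plasma cells, the antibody-secreting form of the B cell, make far more of this message than resting B cells. In whole spleen, fewer cells of a type and less RNA per cell cannot be told apart. An array probe set for a V gene can also read related members of its family: 19 of the 32 probe sets have identifiers that end in other than plain _at (15 _f_at, 2 _r_at, 1 _s_at and 1 _g_at), which marks probes shared between transcripts or relaxed design rules. The identity of the V gene read by those 19 is therefore uncertain.

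Total RNA of mouse spleen had been labelled and hybridised to 12 arrays, 2 (named a and b) for each sex at 3-4 weeks, 6-9 weeks and 24-28 weeks, ages which the design describes as before, at and after puberty. No treatment or genetic change is named for any group, and no strain is named in the labels used here. The labels do not say whether arrays a and b came from different animals, so the p-values rest on array-to-array spread that may be purely technical. Signals below are MAS5 signals rescaled to a trimmed mean of 500 on each array, and log2 differences are between means of log2(scaled signal + 32), a scale that understates the change of dim probe sets. A probe set was called higher or lower where its p from limma, adjusted over all 8926 probe sets tested, was under 0.05. The share of probe sets at a signal of 100 or more was between 59.4% and 65.0% on the 12 arrays. RNA quality was read from the ratio of 3' to 5' probe sets for beta-actin, which ranged from 0.333 in males at 6-9 weeks to 2.62 in males at 24-28 weeks. The same ratio for Gapdh, another control gene, ranged from 1.06 in males at 6-9 weeks to 2.92 in females at 3-4 weeks. It was 2.37 and 2.3 in males at 24-28 weeks and 2.35 and 2.26 in males at 3-4 weeks. Cd79a of the B cell list, a signalling chain of the antigen receptor, gave signal on all 12 arrays, as a spleen should, between 1590 and 7960. Genes of the pancreas, a neighbouring organ, were bright as well, with Pnliprp1, a lipase-related gene, between 1220 and 8950.

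Most variable region probe sets peaked at 1 of 2 places in the design. Their mean signal was highest in females at 24-28 weeks for 17 of 32 and in males at 6-9 weeks for 13, and 1 each was highest in the youngest and in the oldest males. Among the female groups alone, 26 were highest at 24-28 weeks, 4 at 6-9 weeks and 2 at 3-4 weeks. Among the male groups alone, 28 were highest at 6-9 weeks, 2 at 3-4 weeks and 2 at 24-28 weeks. The difference between the 2 arrays of a group was small beside this: its median size was 0.18 on the log2 scale for these probe sets and 0.19 for all probe sets tested. It was 0.15 for the 26 members with a mean signal of 200 or more and 0.45 for the 6 dimmer ones. The dimmer 6 therefore carry more error, and 4 of them were called in no comparison.

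**Figure D1:**
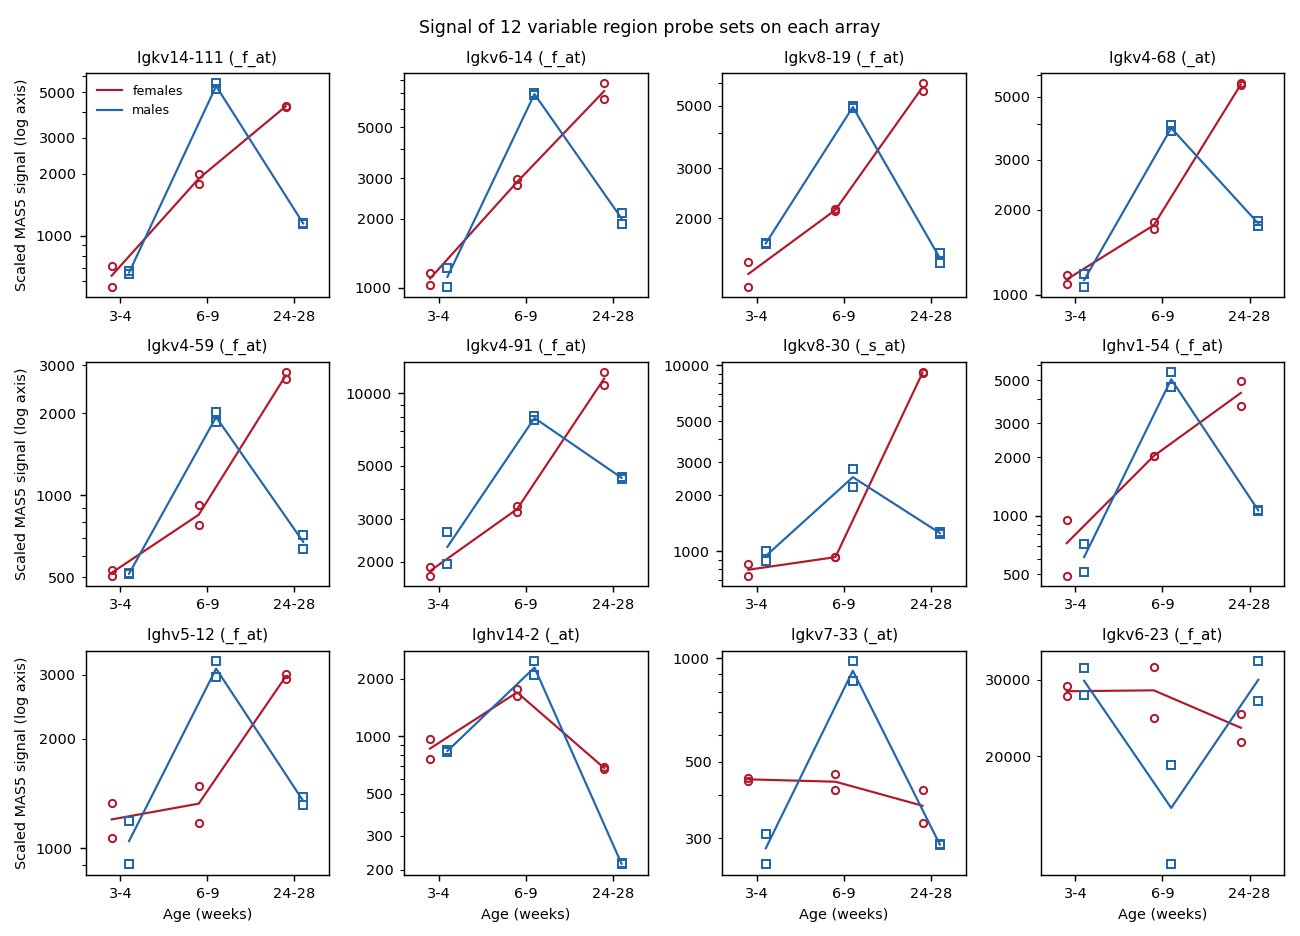
Scaled MAS5 signal (log axis) of 12 variable region probe sets against age in weeks, with each array as a point (circles for females, squares for males) and lines joining the means of the 2 arrays. In the first 9 panels females were highest at 24-28 weeks and males at 6-9 weeks, while Ighv14-2 fell after 6-9 weeks in both sexes, Igkv7-33 was high only in males at 6-9 weeks and Igkv6-23 was lowest there.

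In females, more variable region probe sets were higher than lower in each step of age. From 3-4 to 6-9 weeks 16 of the 32 were higher and 0 lower (of all probe sets tested, 5.95% were higher and 5.42% lower), with a median log2 difference of 0.59 against 0.03 over all probe sets. The called members were between 1.51-fold and 2.97-fold higher, with a median of 1.79-fold. Igkv14-111 (_f_at) read 714 and 565 at 3-4 weeks and 1999 and 1795 at 6-9 weeks, a log2 difference of 1.53 (SE 0.11, adjusted p = 5.59e-06). Igkv6-14 (_f_at) read 1167 and 1029, then 2967 and 2805 (log2 difference 1.37, adjusted p = 2.4e-05). Both genes gave arrays at 6-9 weeks that all lay above those at 3-4 weeks. Of the heavy chain genes, Ighv1-54 rose from 953 and 491 to 2039 and 2029, which is 1.53 on the log2 scale (SE 0.25, adjusted p = 0.00229). Igkv1-133 (0.77), Igkv8-19 (0.745) and Ighv14-2 (92740_at, 0.96) rose as well. In the same step 11 of 14 erythroid genes fell and 1 rose (median -1.45), 9 of 17 pancreas genes fell and 0 rose (median -0.46), and the beta-actin ratio went from 1.03 and 1.37 to 0.574 and 0.738. Their part in the rise was not tested.

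From 6-9 to 24-28 weeks in females 20 members were higher and 2 lower, against 8.36% higher and 13.8% lower of all probe sets tested. Their median was 1.14, while that of all probe sets was -0.07. The called rises ranged from 1.61-fold to 9.77-fold, with a median of 2.49-fold. Igkv8-30 (_s_at) was at the top of that range: it read 930 and 932 at 6-9 weeks and 9160 and 9030 at 24-28 weeks, a log2 difference of 3.25 (SE 0.12, adjusted p = 2.39e-08). At 3-4 weeks it had read 852 and 741, so that nearly all of its rise fell in the second step. The next largest rise was that of the dim Igkv2-112 (1.89, SE 0.38, adjusted p = 0.00417). Family 4 of the kappa locus, which has 4 named member genes here, rose in all 4. Igkv4-68 went from 1812 and 1711 to 5497 and 5584 (log2 difference 1.64, adjusted p = 4.52e-07), and this probe set ends in plain _at. Igkv4-59 went from 779 and 918 to 2824 and 2670 (1.66), Igkv4-91 from 3206 and 3415 to 10806 and 12258 (1.79), and Igkv4-70 from 3789 and 3862 to 11566 and 11684 (1.60). In each of the 4 genes both older arrays lay above both younger ones. The 2 falls were both probe sets of Ighv14-2 (92740_at, -1.275, and 98974_at, -1.64).

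In males most members were higher at 6-9 than at 3-4 weeks and lower at 24-28 than at 6-9 weeks. From 3-4 to 6-9 weeks 23 members were higher and 1 lower (background 9.94% and 9.29%), with a median of 1.51 against 0.07 over all probe sets, and the called rises ranged from 2.08-fold to 8.26-fold with a median of 3.3-fold. Igkv14-111 (_f_at) read 674 and 650 at 3-4 weeks and 5190 and 5514 at 6-9 weeks, a log2 difference of 2.96 (SE 0.11, adjusted p = 1.82e-08). Igkv6-14 (_f_at) rose from 1012 and 1223 to 6888 and 7027 (2.61, adjusted p = 5.41e-08). The largest fold was that of the heavy chain gene Ighv1-54, from 711 and 512 to 4606 and 5504 (log2 difference 2.99, SE 0.25, adjusted p = 6.68e-06). All 6 heavy chain probe sets were among the rises, as were Igkv10-96 (102157_f_at, 2.21), Igkv4-59 (1.84) and Igkv4-68 (1.76). The 1 fall was that of Igkv6-23, described below. In the same step 12 of 14 erythroid genes fell and 0 rose (median -1.78), 9 of 14 neutrophil genes fell and 1 rose (median -1.34), 7 of 17 pancreas genes rose and 0 fell, and the beta-actin ratio went from 1.03 and 1.19 to 0.376 and 0.333. Their part in the members' rise was not tested. Whether the change in males differed from that in females is addressed by the test of sex and age together, given further on.

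From 6-9 to 24-28 weeks in males 25 members were lower and 1 higher, against 28.3% lower and 15.7% higher of all probe sets tested, and the median was -1.11 against -0.25 for all; relative to the mean of 22 B cell genes, a scale that moved the median of all probe sets to 0.89, 9 members were lower and 5 higher with a median of 0.03, against 2.62% lower and 64.4% higher of all probe sets. Igkv14-111 (_f_at) read 1150 and 1147 at 24-28 weeks (log2 difference -2.19, adjusted p = 5.94e-08), Igkv8-19 fell from 5005 and 4891 to 1381 and 1504 (-1.76, adjusted p = 1.47e-07) and Ighv1-54 fell to 1059 and 1072 (-2.21, adjusted p = 2.47e-05). The falls ranged from 1.27-fold, in Igkv1-133, to 10.7-fold, in Ighv14-2. The B cell list fell in the same comparison: 19 of its 22 genes were lower and 1 higher, with a median of -1.02, among them Cd79a (-2.07), the signalling kinase gene Blk (-1.33), the tetraspanin gene Cd37 (-1.93) and the B cell coactivator gene Pou2af1 (-1.79). Of 15 T cell genes 13 were lower, and of 14 neutrophil and 14 erythroid genes 13 each were higher, while the beta-actin ratio was 2.62 and 2.39 on these arrays. The summed signal of the B cell list on the male arrays was 59208 to 63999 at 6-9 weeks. At 24-28 weeks it was 46186 to 46601. That sum includes Cd24a, which went the other way, from between 7170 and 8960 to between 19900 and 20700. The summed signal of the neutrophil list was 23877 to 30557 at 6-9 weeks and 123629 to 129404 at 24-28 weeks. The part of cell makeup and of RNA quality in the fall was not tested. Under quantile normalization, which moved the median of all probe sets in this comparison by 0.22, 23 members were lower and 2 higher.

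**Figure D2:**
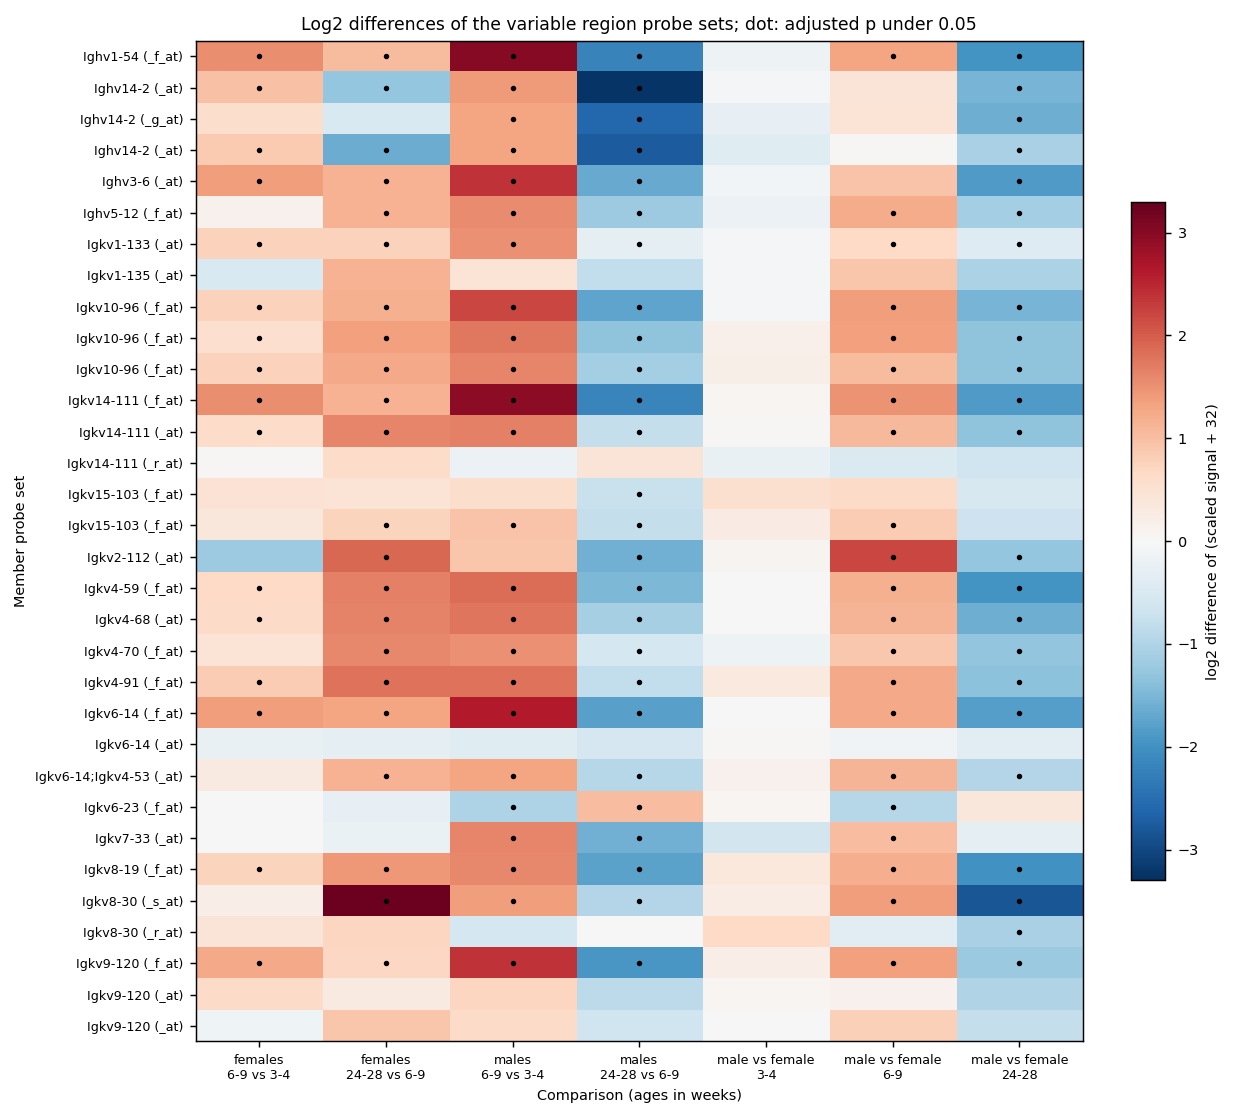
Log2 differences of all 32 member probe sets (rows, in the order of their names) in 7 comparisons (columns), red for higher and blue for lower, with a dot where the adjusted p was under 0.05. In the columns for males most rows are red from 3-4 to 6-9 weeks and blue from 6-9 to 24-28 weeks, the columns for females are mostly red, and the column for the sexes at 3-4 weeks holds no dot; on the scale set to 22 B cell genes, on which the median of all probe sets is 0.89, the blue male column holds 5 higher and 9 lower.

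The sexes were compared at each age to ask when their variable region signals parted. At 3-4 weeks 0 of the 32 members were called by limma (background 1.85% higher and 1.22% lower), with 5 at an unadjusted p under 0.05 and a median of 0.03. Igkv7-33 came nearest, with 449 and 441 in females and 309 and 252 in males (log2 difference -0.62, SE 0.16, adjusted p = 0.061). Next was Igkv8-19, with 1394 and 1142 in females and 1619 and 1634 in males (0.36, adjusted p = 0.0953). With 2 arrays a group, differences of this size were not shown to be present or absent.

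At 6-9 weeks 20 members were higher in males and 1 was lower, against 3.66% and 4.91% of all probe sets tested. The median was 1.03, and the called members were 1.6-fold to 6.44-fold higher in males, with a median of 2.37-fold. Igkv14-111 (_f_at) read 1999 and 1795 in females and 5190 and 5514 in males, a log2 difference of 1.48 (SE 0.11, adjusted p = 1.47e-05). Igkv4-68 read 1812 and 1711 against 3780 and 3986 (1.13, adjusted p = 1.96e-05), and Igkv8-19 read 2127 and 2148 against 5005 and 4891 (1.199, adjusted p = 3.36e-05). Igkv8-30 (_s_at) read 930 and 932 in females and 2223 and 2779 in males (1.39, adjusted p = 3.25e-05), although its higher level in females came later. Of the heavy chain members Ighv1-54 (1.295, adjusted p = 0.00737) and Ighv5-12 (1.22, adjusted p = 0.000431) were higher, while the 3 probe sets of Ighv14-2 (0.42, 0.46 and 0.03) and that of Ighv3-6 (0.93) were not called. The widest fold, that of Igkv2-112, rests on a dim probe set that read 79.2 and 31 in females and 395 and 314 in males.

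The B cell list did not move with the members at this age: of its 22 genes 0 were higher in males and 3 lower, with a median of -0.18, and relative to it 24 members were higher and 0 lower (9.12% and 1.48% of all probe sets). Of 14 plasma cell genes 2 were higher and 0 lower. These were Xbp1 (0.61, adjusted p = 0.00568), which encodes a transcription factor of secretory cells, and Sec11c (0.70, adjusted p = 0.0024), which encodes a part of the signal peptidase. Pancreas genes were also higher in these males (13 of 17 higher and 1 lower, median 1.415), with a summed signal of 58560 to 61671 on the female and 97933 to 136895 on the male arrays. The beta-actin ratio was 0.574 and 0.738 in these females and 0.376 and 0.333 in these males. Of 14 erythroid genes 8 were lower and 2 higher in these males (median -0.86). The summed erythroid signal was 37852 to 41399 on the female and 18326 to 26798 on the male arrays. The part of any of these in the members' difference was not tested.

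At 24-28 weeks the difference had the opposite sign: 23 members were lower in males and 0 higher (background 9.68% lower and 7.04% higher), with a median of -1.28 against -0.08 over all probe sets, and relative to the mean of the 22 B cell genes 16 were lower and 3 higher with a median of -0.365, against a median of 0.84 over all probe sets on that scale (0.93% lower and 68.7% higher). Females were between 1.35-fold and 7.26-fold higher among the called members, with a median of 2.63-fold. Igkv8-30 (_s_at) read 9160 and 9030 in females and 1270 and 1236 in males, a log2 difference of -2.83 (SE 0.12, adjusted p = 2.8e-08). Igkv8-19 read 5626 and 6000 against 1381 and 1504 (-1.99, adjusted p = 2.37e-07), and Igkv4-59 read 2824 and 2670 against 717 and 633 (-1.98, adjusted p = 4.64e-07). Igkv4-68 (-1.62) and Igkv14-111 (_f_at, -1.86) completed the 5 members with the smallest p at this age. All 6 heavy chain probe sets were lower in males, with log2 differences from -1.07 in Ighv14-2 (98974_at) to -1.97 in Ighv1-54.

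Other lists differed between the sexes at 24-28 weeks as well. In the B cell list 17 of 22 genes had lower and 1 had higher values in males (median -0.915), among them Blk (-1.29), Cd83 (-1.91), Cd72 (-1.61) and Cd79a (-1.20). Of 14 plasma cell genes 5 were lower and 0 higher, among them Irf4 (-1.76), Xbp1 (-0.74), Txndc5 (-1.21) and Sec11c (-0.55). T cell genes were lower (11 of 15, median -1.18), and all 14 neutrophil genes were higher (median 3.75), among them the granule protease gene Prtn3 (4.46). Of 14 erythroid genes 11 were higher and 0 lower in males (median 0.795), and of 17 pancreas genes 9 were lower and 3 higher. The beta-actin ratio was 1.36 and 1.23 in these females against 2.62 and 2.39 in these males. Their part in the members' difference was not tested.

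**Figure D3:**
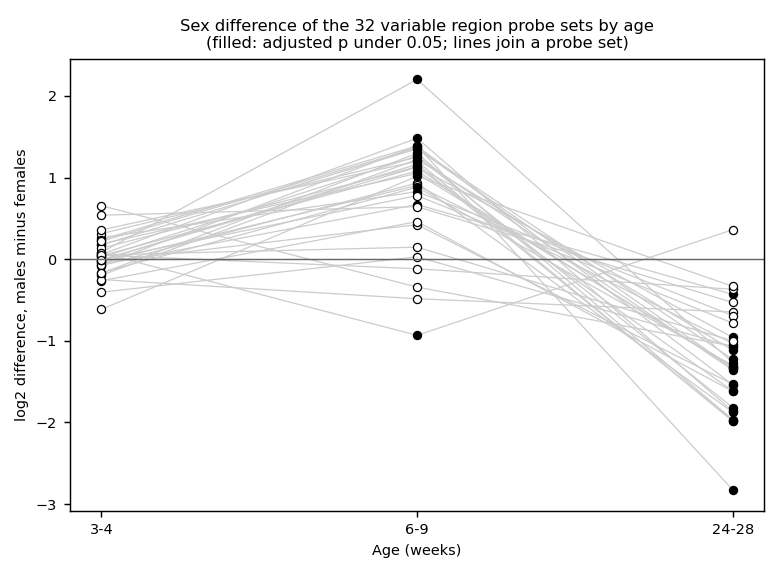
Log2 difference between males and females (males minus females) of the 32 member probe sets at 3 ages, filled where the adjusted p was under 0.05 and joined by a line for each probe set. The points lie around 0 at 3-4 weeks, with a median of 1.03 at 6-9 weeks and of -1.28 at 24-28 weeks, and relative to 22 B cell genes the last median is -0.365 for the members and 0.84 for all probe sets.

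Of the 20 members higher in males at 6-9 weeks, 18 (90%) were lower in males at 24-28 weeks, and these were 78.3% of the 23 members lower at that age. The 2 comparisons share no array, but both use a spread for each probe set that was estimated from all 12 arrays. Of all probe sets tested, 120 did so, which were 36.7% of the 327 higher at 6-9 weeks and 13.9% of the 864 lower at 24-28 weeks. The other 5 members lower at 24-28 weeks were the 3 probe sets of Ighv14-2, Ighv3-6 and Igkv8-30 (_r_at). A test of change in the sex difference over the ages called 26 of the 32 members, against 15.2% of all probe sets tested. The smallest adjusted p was that of Igkv8-30 (_s_at, 1.38e-07), followed by Igkv8-19, Igkv4-68 and Igkv14-111 (_f_at), each at 3.71e-07, Igkv4-59 (5.97e-07) and Igkv6-14 (_f_at, 1.1e-06). All 6 heavy chain probe sets and 20 kappa probe sets were called. Without the 2 male arrays at 24-28 weeks the test, which then covers the first 2 ages only, called 12 members.

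Averaged over the ages, 5 members were lower in males and 0 higher (background 5.1% and 3.76%): Igkv8-30 (_s_at, -0.40), Igkv4-59 (-0.28) and the 3 probe sets of Ighv14-2 (-0.48, -0.475 and -0.38). Without the male arrays at 24-28 weeks, which leaves the average over 3-4 and 6-9 weeks, 18 members were instead higher and 0 lower. Without those at 6-9 weeks, which leaves 3-4 and 24-28 weeks, 21 were lower. The share of all probe sets called in these settings is not given here. The sign of the averaged difference thus rests on which ages enter it. Relative to the B cell list 18 were higher and 0 lower, but so were 62.3% of all probe sets, and the median was 0.30 for the members and 0.40 for all. Igkv4-59 also missed the threshold with quantile normalization (-0.18, adjusted p = 0.134), without the intensity trend (adjusted p = 0.0646) and on leaving out any of 5 single arrays (adjusted p from 0.0535 to 0.0664). These were array b of females at 3-4 weeks and at 6-9 weeks, array a of females at 24-28 weeks, and array b of males at 6-9 and at 24-28 weeks. Averaged over the sexes, 24 members were higher and 1 lower at 6-9 than at 3-4 weeks (background 14.2% and 11.2%), with a median of 1.03. Igkv14-111 (_f_at, 2.24), Igkv6-14 (_f_at, 1.99), Igkv10-96 (102157_f_at, 1.48), Igkv4-68 (1.19) and Igkv8-19 (1.17) had the smallest p.

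From 6-9 to 24-28 weeks averaged over the sexes, 7 members were higher and 9 lower (background 15.9% and 28.8%), with a median of -0.01 against -0.15. Under quantile normalization the split was 3 higher and 9 lower. Without the male arrays at 24-28 weeks, which leaves the step in females alone, it was 21 higher and 3 lower. Relative to the B cell list 23 were higher and 3 lower, against 64.5% and 3.39% of all probe sets. The medians on that scale were 0.79 for the members and 0.65 for all. Igkv8-30 (_s_at, 1.14), Igkv4-91 (0.48), Igkv4-70 (0.50), Igkv4-68 (0.265) and the plain _at probe set of Igkv14-111 (0.42) were the 5 higher members with the smallest p, although the calls of the 3 family 4 genes were lost under quantile normalization (adjusted p = 0.289, 0.0882 and 0.165). The lower ones were the 3 probe sets of Ighv14-2 (-2.25, -2.19 and -1.55), Igkv7-33 (-0.90) and the _f_at probe set of Igkv14-111 (-0.52). The _f_at and the plain _at probe set of Igkv14-111 thus went in opposite directions.

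Ighv14-2 departed from the other members in that it fell in both sexes after 6-9 weeks. Its 3 probe sets, 2 of which end in plain _at, gave like patterns. The probe set 92740_at read 962 and 760, then 1776 and 1614, then 670 and 692 in females, and 823 and 849, then 2100 and 2476, then 213 and 216 in males, in order of age. The probe set 98974_at read 439 and 416, 836 and 774, and 224 and 249 in females, and 308 and 322, 730 and 923, and 93 and 98.4 in males. In males the log2 difference from 6-9 to 24-28 weeks was -3.23 for the former (SE 0.13, adjusted p = 1.02e-08) and -2.74 for the latter (SE 0.16, adjusted p = 1.24e-07). In females it was -1.275 and -1.64. The third, 92741_g_at, gave -2.59 in males, and its difference of -0.51 in females was not called (adjusted p = 0.0554).

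Igkv7-33 and Igkv6-23 departed in other ways. Igkv7-33, a plain _at probe set, read between 332 and 462 on all 6 female arrays, 309 and 252 in males at 3-4 weeks, 858 and 982 at 6-9 weeks and 286 and 289 at 24-28 weeks. In males the log2 differences of the 2 steps were 1.61 and -1.57 (adjusted p = 2.32e-05 and 9.27e-06), while neither step was called in females (-0.02 and -0.22). Igkv6-23 was the brightest member, with a mean signal of 25800 over all arrays, and it ranked between 2 and 55 among the probe sets of its array. It read 27699 and 31930 in males at 3-4 weeks, 19138 and 11288 at 6-9 weeks and 33107 and 26825 at 24-28 weeks, so that it was lowest where most members were highest in males. The log2 difference was -1.015 from 3-4 to 6-9 weeks (SE 0.22, adjusted p = 0.0078), a call lost without male array b of 3-4 weeks (-0.91, adjusted p = 0.0596). It was 1.02 in the next step (adjusted p = 0.00303). Against females of 6-9 weeks, who read 24543 and 32148, the difference was -0.93 (adjusted p = 0.0235), and it was not called without male array b of that age (-0.55, adjusted p = 0.0959), without female array b (-0.74, adjusted p = 0.187), without the intensity trend (adjusted p = 0.0735) or relative to the B cell list (-0.70, adjusted p = 0.0646). Male array b of 6-9 weeks had the lowest maximum of the 12, 28490 in the deposited values against 44639 or more on the others, and Igkv6-23 lay at 60% to 97.7% of its array's maximum. At such signals an array may no longer rise in proportion to the RNA, which was not tested.

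Several genes were read by more than 1 probe set, and these did not always give the same picture. The 3 probe sets of Igkv10-96, all _f_at, were called in the same direction in each step in each sex and in both sex differences after 3-4 weeks. For example, 102157_f_at read 640 and 736 in females and 1815 and 1876 in males at 6-9 weeks (log2 difference 1.39, adjusted p = 7.5e-05), and 99369_f_at read 369 and 439 against 892 and 843 (1.05, adjusted p = 0.00104). For Igkv14-111 the _f_at and plain _at probe sets agreed in the direction of every step within a sex and of both later sex differences. They were nevertheless highest in different groups, males of 6-9 weeks for the former and females of 24-28 weeks for the latter. The plain _at probe set read 1916 and 2050 in those females and 1331 and 1368 in those males. The _r_at probe set stayed between 165 and 512 and was called in no comparison within a sex or an age. The bright _s_at probe set of Igkv8-30 had a dim _r_at partner that read 78.9 to 315 and was called only in the sex difference at 24-28 weeks (-1.07, adjusted p = 0.049). Igkv6-14, Igkv9-120 and Igkv1-135 account for the 4 probe sets called in no comparison, each with a plain _at ending and a signal that never exceeded 203. The brighter _f_at probe set of Igkv9-120, in contrast, rose from 1004 and 916 to 4603 and 5782 in males (2.39, adjusted p = 3.24e-06). The 2 _f_at probe sets of Igkv15-103 were dim and followed the common pattern in part. The probe set 101329_f_at read 229 and 237 in females and 466 and 412 in males at 6-9 weeks (0.83, adjusted p = 0.0401), and 101330_f_at read 239 and 313 against 516 and 385 (0.64, adjusted p = 0.122). Of the 13 plain _at probe sets, 6 were higher in males at 6-9 weeks and 8 were lower at 24-28 weeks.

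Of the members with a single probe set, Ighv5-12 and Igkv1-133 show how the timing and size of the changes varied. Ighv5-12 read 1330 and 1070 in females at 3-4 weeks, 1174 and 1478 at 6-9 weeks and 2919 and 3011 at 24-28 weeks, and its first step there was not called (0.14, adjusted p = 0.632). In males it read 903 and 1189, then 2961 and 3270, then 1315 and 1383. Its female arrays of 24-28 weeks and male arrays of 6-9 weeks overlapped, and all others were below them. Igkv1-133 read 3190 and 3500, 5726 and 5710, and 9927 and 9578 in females, a rise in each step. In males it read 2963 and 3418, then 9809 and 8465, then 7228 and 7216, and its last step was the smallest of the called falls (-0.33, SE 0.10, adjusted p = 0.0213). Ighv3-6, a plain _at probe set, read 140 and 301, 669 and 517, and 1249 and 1429 in females, and 128 and 289, 1006 and 1321, and 328 and 353 in males. The wide spread of its youngest arrays in both sexes gave it an SE of 0.33. The probe set shared by Igkv6-14 and Igkv4-53 read 428 and 431 in females at 24-28 weeks, 450 and 403 in males at 6-9 weeks and 102 to 213 on all other arrays.

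Neighbouring members of the kappa locus can be set side by side. Igkv14-111 and Igkv2-112 lie next to each other with 0 V genes between them in the RefSeq annotation of assembly GRCm38.p6, which named all 20 genes as V segments. Igkv2-112 was dim and not called in either sex from 3-4 to 6-9 weeks (-1.19 in females and 0.93 in males), the step in which Igkv14-111 rose in both. Igkv7-33 and Igkv8-30 have 2 V genes between them. In females at 24-28 weeks Igkv8-30 (_s_at) had risen by 3.25 while Igkv7-33 differed by -0.22 (adjusted p = 0.357). Igkv4-70 and Igkv4-68, with 1 V gene between them and a shared family, rose by 1.60 and 1.64 in the same step. In that step 20 of the 32 members rose. Igkv1-135 and Igkv1-133 also share a family and have 2 V genes between them. Igkv1-133 rose in both steps in females, and the dim Igkv1-135 was called in no comparison.

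The constant region genes, which encode the rest of the antibody chains and set its class, are transcribed together with a joined V segment as 1 message. Of 17 listed symbols 6 were tested. Igha, the constant region of immunoglobulin A, rose to 6-9 weeks in both sexes and then fell in males (-0.92, adjusted p = 8.42e-06): its brightest probe set read 2311 and 2543, 5152 and 5101, and 7048 and 7598 in females, and 2928 and 3022, 13261 and 12184, and 6728 and 6717 in males. It was higher in males at 6-9 weeks by 1.305 (adjusted p = 8.52e-06), and the difference at 24-28 weeks was not called (-0.12, adjusted p = 0.419). Of its 2 dimmer probe sets, 97009_f_at was lower in males at 24-28 weeks (-1.44, adjusted p = 0.00212) and 161486_f_at was not called there (-0.41, adjusted p = 0.393). Ighg3, the constant region of an immunoglobulin G subclass, was read by 6 probe sets that disagreed in males. The brightest rose after 6-9 weeks in both sexes, from 1060 and 1016 at 6-9 weeks to 10939 and 11930 at 24-28 weeks in females (3.42, adjusted p = 5.56e-09) and from 1090 and 1152 to 4302 and 4197 in males (1.89, adjusted p = 7.25e-08). At 24-28 weeks it was lower in males (-1.42, adjusted p = 2.31e-06), and 102722_g_at moved in the same directions. The other 4, all _f_at, fell in males after 6-9 weeks, with log2 differences from -1.75 (93927_f_at) to -1.34 (97574_f_at), and were higher in males than in females at 6-9 weeks by 1.35 to 1.74, as most members were. Jchain, whose protein joins the units of polymeric antibodies, rose in females from 4783 and 4670 to 11966 and 11653 (1.315, adjusted p = 1.66e-05) and was not called in males over that step (-0.14, adjusted p = 0.354).

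Ighm, the constant region of immunoglobulin M, was read by 11 tested probe sets that disagreed. The brightest, an _s_at probe set, lay between 10081 and 19856 on all arrays and was lower in males at 6-9 than at 3-4 weeks (-0.69, adjusted p = 0.0104) and then higher (0.73, adjusted p = 0.00288), as Igkv6-23 was. The next brightest, 93584_at, fell after 6-9 weeks in females (-1.02, adjusted p = 0.000241) and in males (-1.675, adjusted p = 1.42e-06). Its sex difference at 6-9 weeks was not called (-0.04, adjusted p = 0.903). Of the 11, however, 7 were higher and 0 lower in males at 6-9 weeks, and 8 were lower and 0 higher at 24-28 weeks. One of them, 101870_at, read 41.2 and 29.8 in females at 3-4 weeks and 4874 and 5189 at 24-28 weeks. The 10 probe sets that mixed variable with other symbols went the same way, with 7 higher and 0 lower in males at 6-9 weeks and 0 higher and 8 lower at 24-28 weeks. Ighd, the constant region of the class found on naive B cells, read between 411 and 687 and was called in no comparison. Iglc1, of the lambda light chain, was dim, at 29.6 to 205, and was lower in females at 6-9 than at 3-4 weeks (-1.52, adjusted p = 0.0291).

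Of 9 genes of V(D)J recombination and the surrogate light chain, 1 was higher and 0 lower from 3-4 to 6-9 weeks in females, which was the cytokine receptor gene Il7r (1.02, adjusted p = 0.00454), and 0 and 3 from 6-9 to 24-28 weeks. In males 1 was lower in the first step, and 1 was higher and 4 lower in the second, among them Vpreb3 (-2, adjusted p = 0.000192) and Il7r (-1.62). Of 10 genes of germinal centres and somatic hypermutation, the reaction in which V genes are mutated, 1 rose and 1 fell from 3-4 to 6-9 weeks in each sex. These were Bcl6, the transcription factor of germinal centre B cells (0.74 in females and 0.83 in males), and the mitotic kinase gene Aurka (-1.17 and -1.40). Of all probe sets 5.95% rose and 5.42% fell in that step in females, and 9.94% and 9.29% in males. Counts of 1 in either list there are thus no result about the lists. In the second step 2 germinal centre genes rose and 1 fell in females, and 1 rose and 3 fell in males. Of all probe sets 8.36% were higher and 13.8% lower in that step in females. In males 28.3% were lower and 15.7% higher. The counts of both lists in that male step are thus no result about the lists. Of 12 macrophage genes 8 rose in females and 6 in males to 6-9 weeks with 0 falls, and 4 fell in females and 8 in males after that with 0 rises. Some plasma cell genes rose with the members in males to 6-9 weeks. In males 6 of 14 rose to 6-9 weeks and 0 fell, led by Xbp1 (1.52, adjusted p = 2.27e-06) and Irf4 (1.16, adjusted p = 0.000726), which encodes a transcription factor of B and plasma cells. From 6-9 to 24-28 weeks 6 fell and 2 rose in males, and 3 rose and 1 fell in females. Given the 28.3% and 15.7% of all probe sets, that male count is no result about the plasma cell list either. Fkbp11, a protein folding gene of secretory cells, rose in both sexes (1.66 in females and 1.33 in males).

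The mean log2 level of each list on each array sets these results side by side. Relative to females at 3-4 weeks, the 32 members stood at 0.52 and 1.39 in females of 6-9 and 24-28 weeks and at 0.03, 1.36 and 0.15 in males at the 3 ages. The B cell list stood at 0.335 and -0.12 in females and at -0.14, 0.10 and -1.04 in males. The plasma cell list stood at 0.24 and 0.44 in females and at -0.095, 0.41 and -0.145 in males. The constant region and J chain list stood at 0.10 and 1.18 in females and at -0.09, 0.50 and 0.67 in males. It holds only the brightest probe set of each gene, and other probe sets of Ighm and Ighg3 disagreed with theirs, as described above. The pancreas list stood at -0.44 and 1.23 in females and at 0.49, 0.78 and 0.69 in males. In females 15 of its 17 genes rose and 1 fell in the second step. Its highest level thus fell in the group where 17 of the members were highest. The plasma cell list, like the pancreas list, stood highest in females of 24-28 weeks and next in males of 6-9 weeks. The part of pancreatic tissue in the plasma cell list was not tested. In females the summed pancreas signal was 58560 to 61671 at 6-9 weeks and 176285 to 179529 at 24-28 weeks. The part of pancreatic tissue in the female rise was not tested. In that rise 10 of 22 B cell genes fell and 1 rose, and relative to the B cell list 25 members were higher and 2 lower, against 29.4% and 3.28% of all probe sets.

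**Figure D4:**
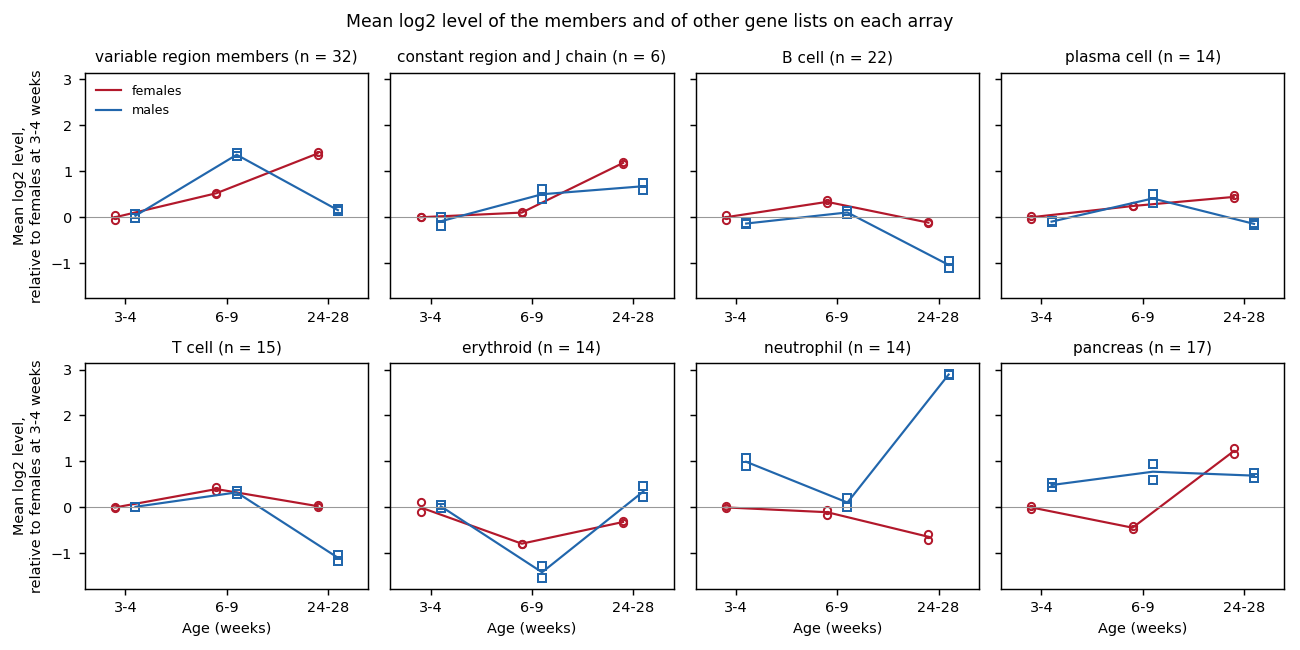
Mean log2 level of the 32 members and of 7 gene lists (n, the genes or probe sets averaged) against age in weeks, relative to the mean of females at 3-4 weeks, with each array as a point (circles for females, squares for males) and lines joining group means. The members reach 1.39 in females of 24-28 weeks and 1.36 in males of 6-9 weeks, while the B cell list stays between -0.14 and 0.335 in all groups but males of 24-28 weeks, at -1.04. The constant region and J chain list stands at 0.50 in males of 6-9 weeks and 0.67 in males of 24-28 weeks.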

How the data were processed

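The authors deposited MAS5 signal intensity values per probe set on a linear scale; MAS5 is named in the submitters' processing notes, with no version. After trimming 2% at each end, the mean of the deposited values was 800.47 to 800.67 on every array, so they had already been scaled, and they were rescaled here to 500. Array controls (66 of 12488 probe sets) were left out, and 8926 probe sets with a signal of 100 or more on 2 or more arrays were tested. The log2(signal + 32) values were fitted with limma 3.58.1 in R 4.3.3 (a mean for each of 6 groups over all 12 arrays, eBayes with an intensity trend). The residual degrees of freedom were 6. Tests were two-sided, and p-values were adjusted by Benjamini-Hochberg within each of 11 comparisons, the change of the sex difference with age being a moderated F test. The method was tested on simulated data. The number of arrays limits the precision.

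Gene symbols came from GEO's platform annotation, which can be old: 10833 non-control probe sets had 1 symbol, 396 several and 1193 none. All 20 member genes matched RefSeq (GRCm38.p6), used only for names and neighbours. Members were given by probe set, and a gene of the other 10 lists by its brightest one. Members and lists were chosen with earlier results of these data known. In each comparison the text names the 5 higher and 5 lower called members with the smallest p, the 6 brightest members, the 6 smallest p of the change with age, members with several probe sets, up to 4 genes of each other list with the smallest p, and all constant region genes. Ighv3-6 and a few values of named members outside this rule were added after their values were seen, as was the Ighm probe set 101870_at. Alternatives covered the offset, normalization, filter, eBayes trend, arrays left out, the array letter as a block and plain _at probe sets. A scale relative to the B cell list, 1 probe set a gene, and a mean signal of 200 or more were added after seeing the data. The array letters were checked as a possible pairing and did not pair the arrays.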

Additional observations from a re-analysis of the deposited data

Results flagged for a closer look

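The sex difference (males minus females) of 26 member probe sets changed with age by limma's moderated F test, an interaction of sex and age adjusted over all probe sets tested. The adjusted p was 1.38e-07 for Igkv8-30 (_s_at), 3.71e-07 for each of Igkv8-19, Igkv4-68 and Igkv14-111 (_f_at), 5.97e-07 for Igkv4-59 and 1.1e-06 for Igkv6-14 (_f_at). For the 3 probe sets of Igkv10-96 it was 4.92e-06 (102157_f_at), 4.77e-05 (102155_f_at) and 4.95e-05 (99369_f_at). Other kappa members gave 9.65e-06 for Igkv4-91, 1.48e-05 for Igkv14-111 (_at), 8.43e-05 for Igkv4-70, 0.000134 for Igkv9-120 (_f_at), 0.000749 for Igkv7-33 and 0.000936 for Igkv1-133. The dimmer or less regular kappa probe sets gave 0.00251 for the one shared by Igkv6-14 and Igkv4-53, 0.00301 for Igkv2-112, 0.0159 (101329_f_at) and 0.0496 (101330_f_at) for Igkv15-103, and 0.0319 for Igkv6-23. In the heavy chain genes the adjusted p was 5.94e-05 (92740_at), 0.000378 (92741_g_at) and 0.0134 (98974_at) for Ighv14-2, 6.63e-05 for Ighv5-12, 0.000237 for Ighv1-54 and 0.0047 for Ighv3-6. Igkv6-23 was the only one of the 26 that was lower in males at 6-9 weeks by a call of its own. Groups of 2 arrays could not be tested for outlying arrays.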

How the results depend on the processing

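Counts of called members stayed within 1.5 times and kept their balance of higher and lower in 226 of 248 recomputed counts. They moved in 16 and reversed their balance in 6. Where a male group was left out, averages took in only the pairs of groups still complete. An age step averaged over sexes that used that group was then the step in females alone. A sex difference averaged over ages was then that of the other 2 ages. For males minus females averaged over ages, 18 were called without the male arrays at 24-28 weeks (18 higher, 0 lower), 21 without those at 6-9 weeks (all lower), 18 relative to the B cell list (all higher), 2 among plain _at probe sets and 3 with 1 probe set a gene. At 3-4 weeks 1 was called relative to the B cell list. Of the 13 plain _at members, 6 were called for the sexes at 6-9 weeks, 8 at 24-28 weeks, 8 and 6 for the 2 age steps averaged over sexes, 6 and 8 for those in females, 8 and 9 for those in males, and 9 for the change of the sex difference with age, since fewer members were counted. The first age step averaged over sexes gave 16 without the male arrays at 6-9 weeks. The second gave 24 without the male arrays at 24-28 weeks (21 higher, 3 lower), 22 without those at 6-9 weeks (20 higher, 2 lower) and 26 relative to the B cell list (23 higher, 3 lower). The second step in males gave 14 relative to that list. That scale moves all probe sets together: their median became 0.40 for the averaged sex difference, 0.65 for the second step averaged over sexes and 0.89 for that step in males. The change of the sex difference with age gave 12 without the male arrays at 24-28 weeks, over the first 2 ages only. The share of all probe sets called is given for these alternatives only on the scale relative to the B cell list. Apart from the smaller counts with fewer members or arrays and the averages left with fewer groups, the cause was not tested.

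Leaving out each array in turn gave 4 to 6 called members for the sexes averaged over ages, 0 to 0 at 3-4 weeks, 18 to 22 at 6-9 weeks and 19 to 23 at 24-28 weeks. The age steps averaged over sexes gave 23 to 25 and 11 to 16, those in females 12 to 17 and 18 to 24, those in males 23 to 24 and 22 to 26, and the change with age 23 to 26. Without male array a of 6-9 weeks the second step averaged over sexes gave 8 higher and 7 lower.

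Single values reversed as well. Without the male arrays at 24-28 weeks the averaged sex difference was 0.81 for Igkv8-30 (_s_at), 0.195 and 0.10 for Ighv14-2 (92740_at and 92741_g_at) and 0.58 for Igkv4-59. Relative to the B cell list it was 0.028 for Igkv8-30, 0.048 for Ighv14-2 (92740_at) and 0.15 for Igkv4-59. The second age step of Igkv14-111 (_f_at) averaged over sexes was 0.28 relative to the B cell list. Without the male arrays of either age only the step in females was left, at 1.16.

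The arrays' letters did not pair them: the correlation of same-lettered arrays' deviations lay between -0.066 and 0.059 over 15 pairs of groups. With the letter as a replicate block 5, 0, 20 and 21 members were called for the sexes averaged and at the 3 ages, 25 and 16 for the age steps averaged over sexes, 15 and 22 in females, 24 and 26 in males, and 25 for the change with age. With 2 arrays a group and MAS5 signals close to background, the 6 members with a mean signal under 200 limit what can be seen.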
